A study of Mus musculus with 14 samples.

Results

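The miR-129 family of the mouse was followed through 5 mature microRNA names, out of 1695 names counted in small extracellular vesicles of neutrophils. The 5 names were mmu-miR-129-5p, mmu-miR-129-2-3p and mmu-miR-129-1-3p, which are made from the hairpins Mir129-1 and Mir129-2, and mmu-miR-129b-5p and mmu-miR-129b-3p, which are made from the antisense hairpin Mir129b. The prefix for mouse, mmu, is left out from here on. The names were chosen by their measured level in vesicles with 27-hydroxycholesterol (27HC), an oxidised metabolite of cholesterol, against the DMSO control, since this family had the strongest decrease. That contrast of 27HC with DMSO is therefore given for them as a description and without a test. Tests are given for the arms within each treatment, and for the difference of the effect between sets of replicates.

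The source of all vesicles was bone marrow of wild-type BALB/c mice, all female, from which primary neutrophils had been isolated by their surface protein Ly6G. The control group was kept with DMSO, the solvent, for 48 h, and the other group with 10 µM 27HC for 48 h. Each group had 7 libraries, numbered 1 to 7. Their labels also bear 2 consecutive numbers per library, of unstated meaning. The same numbers recur in both groups at the same replicate number. No label says whether libraries came from separate animals, so p-values measure only the spread between these samples, which may be technical.

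MicroRNAs are cut from hairpin transcripts by Drosha and Dicer, and either arm of the hairpin, 5p or 3p, can be loaded into Argonaute to repress messenger RNAs with sites that pair with the seed, the bases at positions 2 to 8. The same mature 5p arm comes from both Mir129 loci, while the 3p arms differ between the loci. miR-129-5p is best known from brain, where it represses potassium channel and cytoskeletal genes in neurons, and Mir129-2 is known for silencing by DNA methylation in several tumour types. Neutrophils release vesicles that carry microRNAs of their cell of origin, of which miR-223 is the classic myeloid example.

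The mature sequences are shown because they set which names could be told apart by counting. They are from RefSeq on GRCm38.p6 and are written 5′ to 3′ with the seed in capitals. RefSeq matched 4 of the 5 names, and miR-129-1-3p is given by name only.
miR-129-5p: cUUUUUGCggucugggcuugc
miR-129-2-3p: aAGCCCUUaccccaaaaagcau
miR-129b-5p: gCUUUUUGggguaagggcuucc
miR-129b-3p: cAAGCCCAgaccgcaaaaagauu
These 4 seeds differed from each other, and each was found in 0 of the other mature names that RefSeq lists, a table that holds 1431 of the 1695 counted names and lacks miR-129-1-3p. miR-129-5p and miR-129b-5p shared a run of 7 bases, CUUUUUG. It holds most of the seed of miR-129-5p and is the whole seed of miR-129b-5p, so the same letters stand at positions shifted by 1 base.

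The hairpins show how the antisense names lie over the sense names. Here the capitals mark the mature arms, as far as RefSeq lists them.
Mir129-1: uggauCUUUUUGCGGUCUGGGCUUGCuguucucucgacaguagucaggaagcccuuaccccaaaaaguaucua
Mir129-2: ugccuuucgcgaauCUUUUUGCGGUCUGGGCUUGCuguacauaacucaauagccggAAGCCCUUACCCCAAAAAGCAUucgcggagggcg
Mir129b: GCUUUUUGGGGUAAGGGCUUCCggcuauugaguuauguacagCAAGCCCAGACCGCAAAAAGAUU
In RefSeq on GRCm38.p6, Mir129-2 lies at chr2:94241364-94241453 on the minus strand and Mir129b at chr2:94241378-94241442 on the plus strand, inside the span of Mir129-2. In the GENCODE M21 annotation of GRCm38, Mir129-2 is in an intron of the long non-coding gene Mir670hg, on the same strand, and Mir129b runs against that gene. Mir129-1 lies at chr6:29022619-29022691 on the plus strand, in an exon of the long non-coding gene Gm3294. The deposited counts carry no coordinates of their own, and those given here are only the reference's.

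Each antisense arm was the reverse complement of a sense arm over 20 bases, shown next in capitals. miR-129b-5p pairs in this way with miR-129-2-3p, and miR-129b-3p with miR-129-5p.
miR-129b-5p: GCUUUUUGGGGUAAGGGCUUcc
miR-129b-3p: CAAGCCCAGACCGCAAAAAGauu
Reads of opposite strands can be told apart only where counting used the strand, and the counting rule is not given in the sources used here. Some other antisense names had counts close to those of a sense name, as given further below. Values of the miR-129b names are therefore counts under a name, with the strand of the reads not established. The sequences of miR-129b-5p and miR-129b-3p were complementary to the Mir129-2 hairpin over 22 and 23 bases, their whole length, and to the Mir129-1 hairpin over 21 and 22 bases. Of the 22 bases of miR-129-2-3p, the first 19, which include its seed, also stand in the Mir129-1 hairpin, so short reads of the 3p arms of both loci could be confused.

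**Figure D1:**
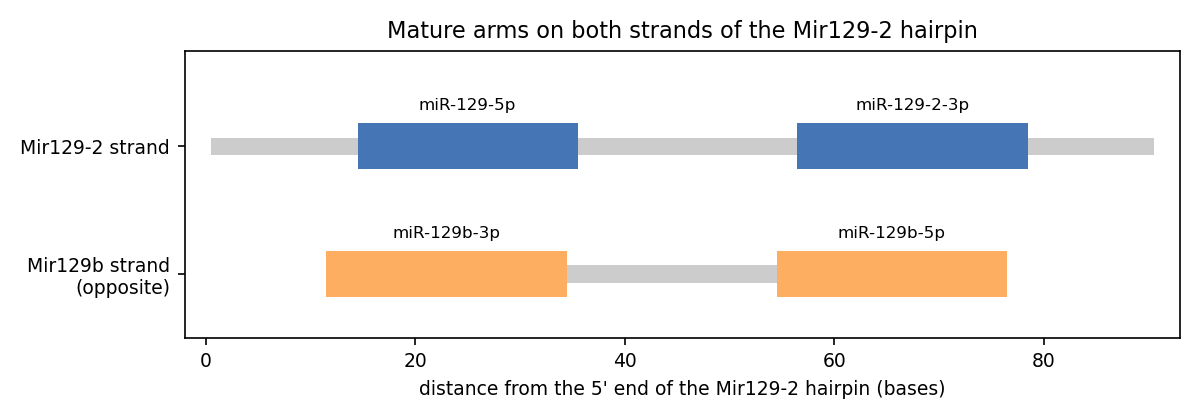
Map of the Mir129-2 and Mir129b hairpins, with the distance in bases along the locus on the x axis, boxes for hairpins and mature arms, and the strands on separate rows. Each antisense arm lies over a sense arm of the opposite strand, miR-129b-3p over miR-129-5p and miR-129b-5p over miR-129-2-3p.

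Library totals ran from 112914 to 871189 counts in DMSO and from 119852 to 405902 in 27HC. Levels below are CPM, the counts of a name scaled to a common library total, with library sizes adjusted by TMM, a scaling that keeps most names level between libraries. A count of 0 allows up to 3 counts, which is 4.09 to 24.1 CPM in DMSO libraries and 7.10 to 24.6 CPM in 27HC libraries, for counting error only. Of the 1695 names, 239 passed the filter on low counts, and 4 of the 5 miR-129 names were among them. The exception was miR-129-1-3p. In bulk vesicle RNA, fewer vesicles that carry a microRNA and less of it per vesicle cannot be told apart.

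miR-129-5p, the dominant arm of the family, ran from 9253 to 20595 CPM in DMSO libraries, with a median of 14426 CPM. In 27HC libraries it ran from 954 to 1949 CPM, with a median of 1622 CPM. The groups were far apart, and the lowest DMSO library was 4.75 times the highest 27HC library. Its mean was 14808 ± 3786 CPM in DMSO and 1512 ± 415 CPM in 27HC (SD, n = 7). The edgeR fit put the log2 fold change at −3.29 (SE 0.21), or 9.75-fold lower. As a share of all counts it was 1.49 ± 0.414% in DMSO and 0.148 ± 0.039% in 27HC (SD, n = 7). Among all names of a library, miR-129-5p ranked 6 to 13 (median 9) with DMSO and 46 to 73 (median 49) with 27HC. It thus stood among the leading microRNAs of the control vesicles. Counts summed over the libraries were 34183 and 2455, so counting error was small in both groups.

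miR-129-2-3p, the partner arm from Mir129-2, ran from 136 to 1049 CPM in DMSO libraries, with a median of 404 CPM. In 27HC libraries it ran from 60.1 to 89.9 CPM, with a median of 74.9 CPM. The groups did not overlap, but the DMSO libraries differed widely among themselves. Replicates 1 to 4 ran from 404 to 1049 CPM (mean 772.7 ± 270.0, SD, n = 4) and replicates 5 to 7 from 136 to 251 CPM (mean 203 ± 59.8, SD, n = 3). With 27HC these sets were close, at 71.3 ± 14.2 CPM (SD, n = 4) and 79.5 ± 7.64 CPM (SD, n = 3). The log2 fold change over all libraries was −2.83 (SE 0.41), from sums of 1390 and 115 counts.

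Replicates 1 to 4 and 5 to 7 were separated because whole profiles divided that way in both groups in earlier results of these data. The labels do not say what divides them. The split thus came from these same data, so p-values for a difference between these sets may be too small. Within replicates 1 to 4, miR-129-2-3p had a log2 fold change of −3.35 (SE 0.31), and within replicates 5 to 7 it had −1.36 (SE 0.33). The effect differed between the sets by 2.04 on the log2 scale (SE 0.47). In edgeR's quasi-likelihood test of that difference the unadjusted p was 0.000599 and the p adjusted over the 239 names was 0.0567, which missed the threshold of 0.05. DESeq2 gave a difference of 1.99 with an adjusted p of 0.0277, and edgeR without DMSO replicate 4 gave 2.16 with an adjusted p of 0.0115. Only 3 alternatives passed the threshold, these among them, and 16 did not. In edgeR the adjusted p reached 0.227 over the omitted libraries. Of all tested names, edgeR called 0 for such a difference, which is 0%, and 24 names, 10%, had an unadjusted p under 0.05. DESeq2 called 3.

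For the other arms the difference between the sets was smaller than its standard error. For miR-129-5p the log2 fold change was −3.18 (SE 0.19) in replicates 1 to 4 and −3.35 (SE 0.25) in replicates 5 to 7, a difference of −0.12 (SE 0.32, edgeR adjusted p 0.912). miR-129b-3p had −2.04 (SE 0.24) and −2.39 (SE 0.35), a difference of −0.30 (SE 0.43, edgeR adjusted p 0.846). For miR-129b-5p the values were −0.97 (SE 0.24) and −1.24 (SE 0.32), a difference of −0.23 (SE 0.42, edgeR adjusted p 0.870).

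miR-129-1-3p, the 3p arm of Mir129-1, was close to the limit of detection. Its counts summed to 23 over the DMSO libraries, from 0 to 7 in each with a median of 3, and to 3 over the 27HC libraries, of which 5 held 0 counts. Libraries of the groups overlapped. By set, replicates 1 to 4 held 21 counts with DMSO and 0 with 27HC, and replicates 5 to 7 held 2 and 3, so the difference rests on replicates 1 to 4. Over all libraries the rate with 27HC was 0.199 times that with DMSO. Its exact 95% interval of 0.0383 to 0.660 covers counting error only and is no test of this contrast, which chose the names. Of the 3p counts from both loci, it took 23 of 1413 in DMSO, or 1.63% (95% exact interval 1.035 to 2.43%), and 3 of 118 in 27HC, or 2.54% (0.527 to 7.25%). The other 3p counts were under the name from Mir129-2 in both groups. The 5p counts hold no such division, because both hairpins give the same mature 5p sequence.

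miR-129b-3p, the antisense arm that is complementary to miR-129-5p, ran from 425 to 1089 CPM in DMSO libraries, with a median of 660 CPM. With 27HC it ran from 72.1 to 203 CPM, with a median of 168 CPM. The groups did not overlap. The means were 720.2 ± 220.5 and 154 ± 47.7 CPM (SD, n = 7), with a log2 fold change of −2.20 (SE 0.24), from sums of 1635 and 260 counts.

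miR-129b-5p, the arm that is complementary to miR-129-2-3p, differed least of the tested names of the family. It ran from 384 to 949 CPM in DMSO libraries, with a median of 481 CPM, and from 213 to 313 CPM in 27HC libraries, with a median of 260.1 CPM. The groups did not overlap, though the lowest DMSO and the highest 27HC library were close. The means were 568.3 ± 212 and 258.5 ± 37.4 CPM (SD, n = 7), with a log2 fold change of −1.14 (SE 0.21), or 2.20-fold lower, from sums of 1220 and 390 counts.

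**Figure D2:**
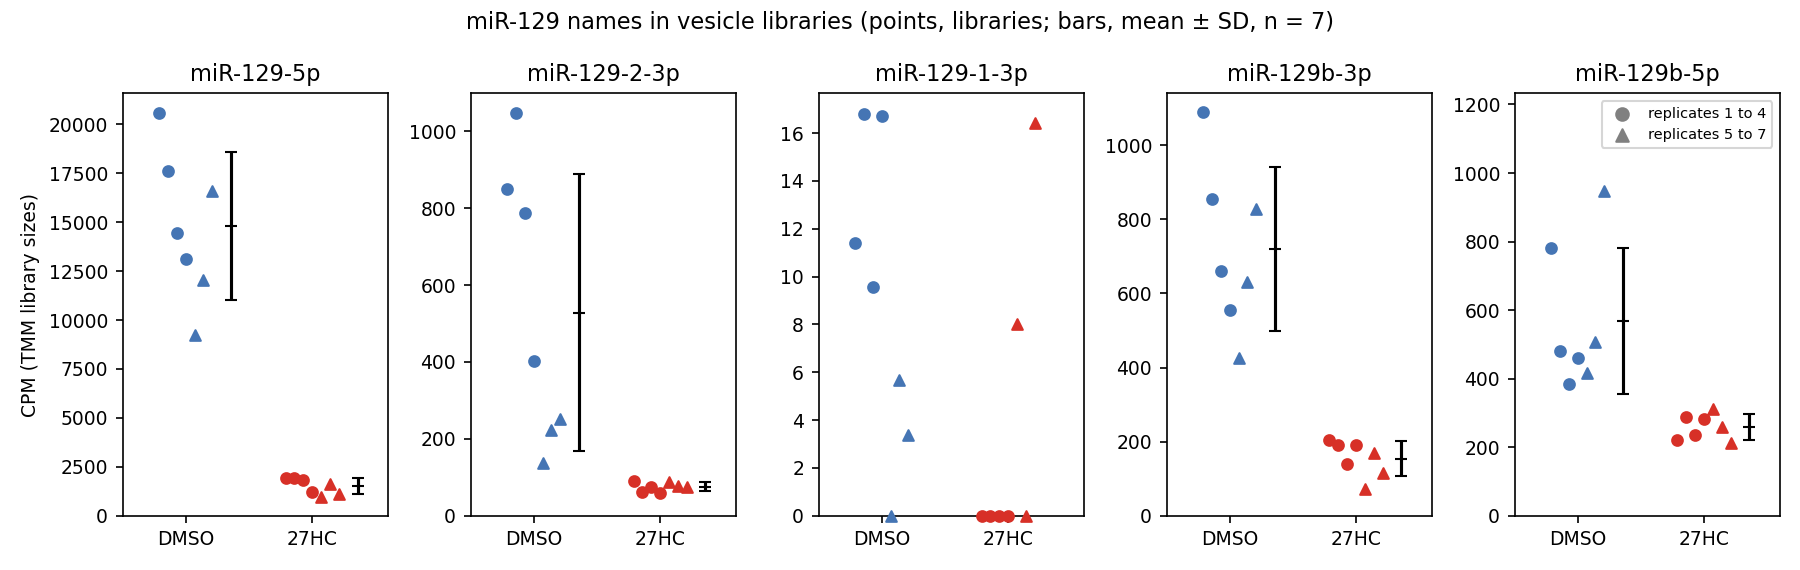
Level of each miR-129 name in CPM (y axis, starting at 0) in the 7 DMSO libraries (blue) and the 7 27HC libraries (red), with circles for replicates 1 to 4 and triangles for replicates 5 to 7. Bars give the mean and SD (n = 7), left out for miR-129-1-3p, which had 5 libraries at 0 with 27HC. The DMSO triangles of miR-129-2-3p, from 136 to 251 CPM, lie under all DMSO circles, from 404 CPM upward.

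Since this contrast chose the names, their place in the whole table is only a description. edgeR called 21 of the 239 tested names lower with 27HC at an adjusted p under 0.05, which is 8.79%. For the miR-129 names a call would be no test, since the same values chose them. All 27HC libraries lay under the lowest DMSO library for 8 names, 3.35%. The 4 tested miR-129 names were among these, which is tied to that choice. A log2 fold change under −1 was found for 11 names, 4.6%, and the median over all tested names was 0.010. By log2 fold change miR-129-5p was lowest of the 239, miR-129-2-3p and miR-129b-3p came next, and miR-129b-5p ranked 9. The nearest names outside the family were miR-142a-3p at −1.53 and miR-155-5p at −1.48, both better known from blood cells. In CPM lost from DMSO to 27HC, miR-129-5p, with 13296 CPM, ranked 2 after miR-223-3p, with 23470 CPM. The other tested names of the family ranked 19 (miR-129b-3p), 22 (miR-129-2-3p) and 24 (miR-129b-5p) by that measure.

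**Figure D3:**
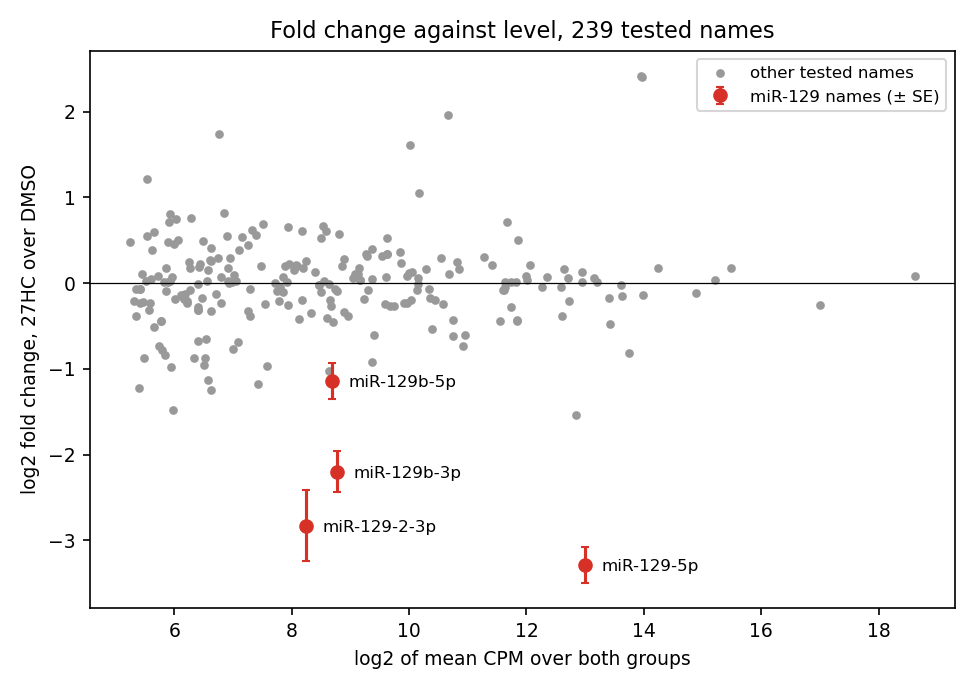
Log2 fold change of 27HC against DMSO (y axis) by mean level on a log2 scale of CPM (x axis) for the 239 tested names, with the miR-129 names in red and bars for their SE. The marked names run from −3.29 for miR-129-5p to −1.14 for miR-129b-5p, while the median of all names is 0.010.

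The names also differed in how steady they were between libraries of a group. In DMSO the SD of log2 CPM was 0.38 for miR-129-5p, 0.48 for miR-129b-5p and 0.44 for miR-129b-3p, beside medians of 0.29, 0.34 and 0.29 for names within 1 log2 unit of their level. miR-129-2-3p had an SD of 1.10, beside a median of 0.39, and 4 of 65 names of like level had a larger one. Counting error alone would give it 0.18. With 27HC the SD of miR-129-2-3p was 0.21, under the 0.39 of counting error, and that of miR-129b-5p was 0.20, beside 0.21 of counting error. The SD was above counting error for miR-129-5p (0.42, counting error 0.094) and for miR-129b-3p (0.50, counting error 0.31), which had the largest SD of the 4 with 27HC.

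Arms within a library were compared next, since both arms of a hairpin are made in equal numbers and differ afterwards by loading and decay. The mean log2 ratio of 2 arms over the 7 libraries of a group was tested by an exact two-sided sign-flip permutation test, whose smallest possible p is 0.0156, and adjusted over 4 ratios in each group. Ratios were taken between sequences that can be captured with unequal efficiency by the library kit, so they compare counts.

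miR-129-5p exceeded miR-129-2-3p in 7 of 7 libraries of each group. The mean log2 ratio was 5.10 ± 0.854 (SD, n = 7) in DMSO, or 34.4-fold (exact permutation p adjusted 0.0208), and 4.27 ± 0.499 in 27HC, or 19.3-fold (exact permutation p adjusted 0.0156). In DMSO the ratio ran from 4.07 to 5.02 in replicates 1 to 4 and from 5.75 to 6.07 in replicates 5 to 7, with no overlap, while with 27HC the means of these sets were 4.56 and 3.88. miR-129-2-3p exceeded miR-129-1-3p in 7 of 7 libraries of each group. That log2 ratio was 5.59 ± 0.670 (SD, n = 7) in DMSO, or 48.1-fold (exact permutation p adjusted 0.0208), and 4.54 ± 1.37 in 27HC. The value with 27HC is given with no test, because 5 of 7 libraries had a miR-129-1-3p count of 0. There the ratio depends on the added prior of 0.5. In DMSO the size of the ratio depends on it too. miR-129-1-3p had 0 to 7 counts per DMSO library, and a prior of 2 gave 4.80.

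By counts, the names of the antisense hairpin stood in opposite order in the groups, with the strand of their reads not established. In DMSO, miR-129b-3p exceeded miR-129b-5p in 6 of 7 libraries, with a mean log2 ratio of 0.36 ± 0.373 (SD, n = 7), or 1.28-fold (exact permutation p adjusted 0.0469). This call was lost when any of DMSO replicates 1 to 6 was left out, with exact permutation p adjusted to between 0.0625 and 0.0938, and the mean was 0.59 in replicates 1 to 4 and 0.050 in replicates 5 to 7. With 27HC, miR-129b-5p was the higher arm in 7 of 7 libraries, with a mean log2 ratio of −0.80 ± 0.615 (SD, n = 7), or 1.74-fold in favour of the 5p arm (exact permutation p adjusted 0.0156). The means of the sets were −0.50 and −1.20 there. The difference between the groups in this ratio follows from the contrast that chose the names and was not tested.

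**Figure D4:**
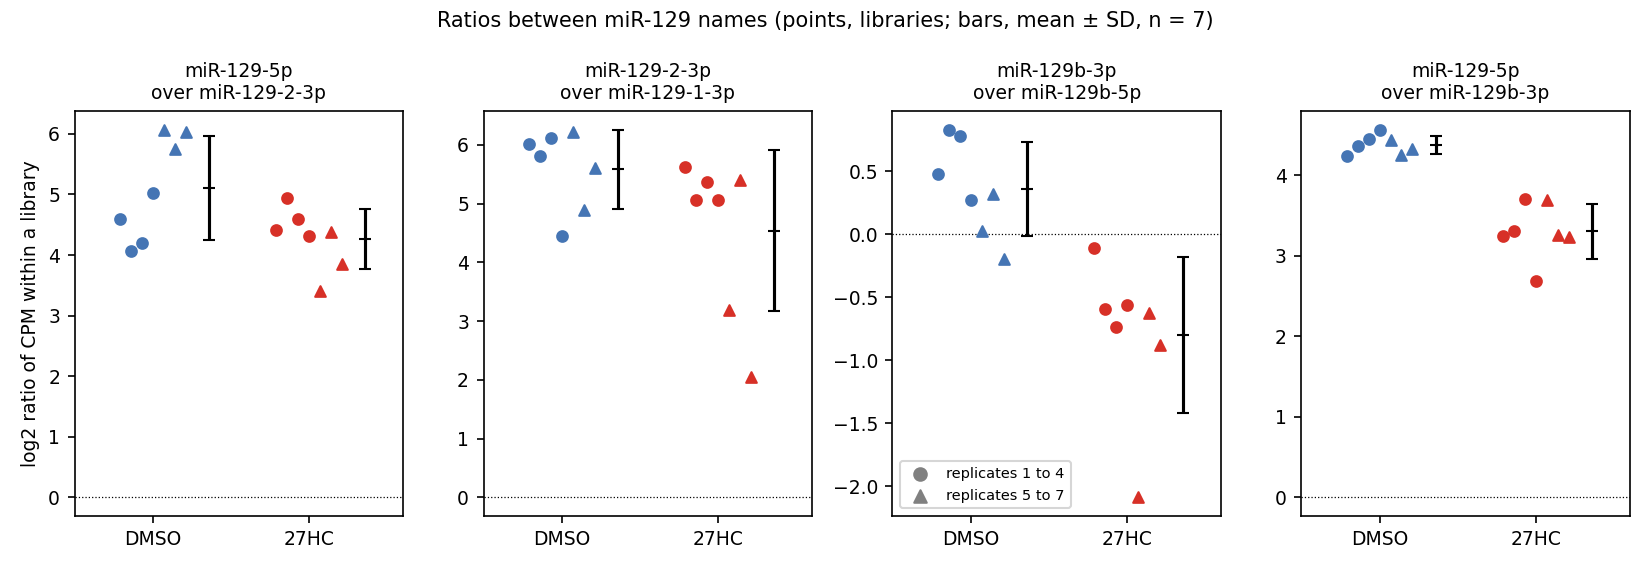
Log2 ratio of arms within each library (y axis) for the 4 ratios tested, in DMSO (blue) and 27HC (red), with circles for replicates 1 to 4, triangles for replicates 5 to 7, and bars for the mean and SD (n = 7). The ratio of miR-129b-3p to miR-129b-5p is above 0 in 6 of 7 DMSO libraries and below 0 in all 7 27HC libraries, and that of miR-129-5p to miR-129b-3p runs only from 4.24 to 4.56 in DMSO.

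In DMSO the most constant of the 4 ratios was that between miR-129-5p and its antisense complement miR-129b-3p. miR-129-5p was higher by 4.37 ± 0.116 on the log2 scale in DMSO (SD, n = 7), or 20.7-fold (exact permutation p adjusted 0.0208), with a range of 4.24 to 4.56. With 27HC it was higher by 3.30 ± 0.344, or 9.86-fold (exact permutation p adjusted 0.0156). From the raw counts, the SD of the log2 ratio in DMSO was 0.117, beside 0.120 for counting error alone. Among the other tested names, 0 of 237 had a smaller SD of their ratio to miR-129-5p in DMSO, where the median was 0.550. With 27HC the SD was 0.348, beside 0.321 for counting error, and 23 of 236 names had a smaller one. The ratio of miR-129-2-3p to miR-129-5p had an SD of 0.859 in DMSO, far above its counting error of 0.186. In control libraries miR-129-5p and its complement thus kept a nearly fixed proportion while the miR-129-5p level varied, and miR-129-5p and miR-129-2-3p did not. Because miR-129-5p can come from either locus, the latter ratio need not be between arms of the same hairpin.

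Seen as a correlation of log2 CPM over the 7 libraries, this restates the steady ratio and is given as a description. The r of miR-129-5p with miR-129b-3p was 0.97 in DMSO, and 0.89 without the 2 libraries farthest from the median of miR-129-5p. With 27HC r was 0.76, and −0.11 without the 2 farthest libraries, so that it rests on those. miR-129b-5p had an r of 0.61 with miR-129-5p in DMSO and −0.31 with 27HC.

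**Figure D5:**
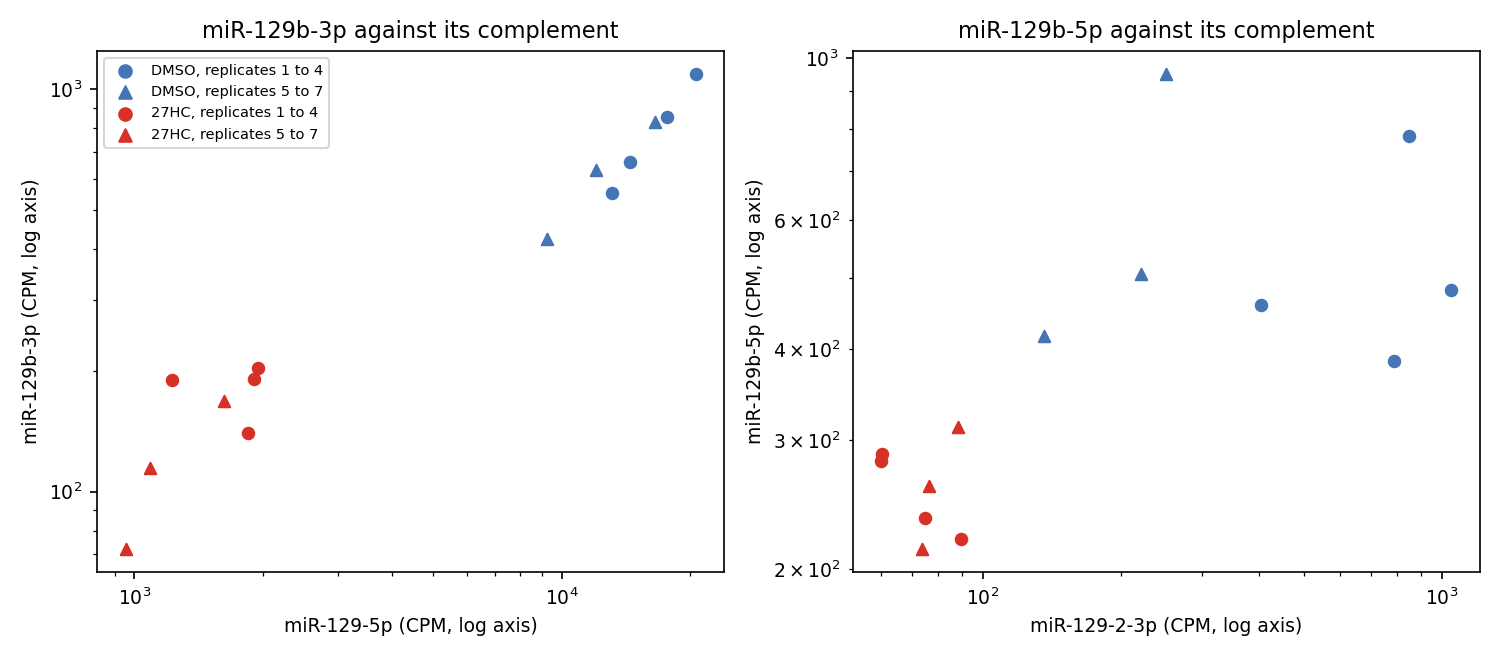
Level in CPM of each antisense name (y axes) against its sense complement (x axes), both on log axes, each point a library, blue for DMSO and red for 27HC, circles for replicates 1 to 4 and triangles for replicates 5 to 7. For miR-129b-3p against miR-129-5p the DMSO points lie close to a line (r = 0.97). In DMSO miR-129-2-3p spreads far more than its complement miR-129b-5p. With 27HC their SDs of log2 CPM are close, at 0.21 and 0.20.

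The complementary partners at the other end of the locus behaved differently. The log2 count ratio of miR-129b-5p to miR-129-2-3p ran from −1.13 to 1.92 in DMSO libraries, with a mean of 0.37 ± 1.23 (SD, n = 7) beside a counting error of 0.225. With 27HC it was 1.79 ± 0.352, beside a counting error of 0.449. In DMSO either name could therefore be the more abundant, depending on the library, while with 27HC the antisense name led in all 7.

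The antisense names together took 7.76 ± 1.13% (SD, n = 7) of all miR-129 counts in DMSO libraries, with a range of 6.42 to 9.55% and a median of 8.02%. With 27HC they took 21.2 ± 4.21% (SD, n = 7), with a range of 16.3 to 26.8% and a median of 20.1%. The groups did not overlap, and the family as a whole went from 16634 ± 4397 CPM, or 1.67 ± 0.477% of all counts, to 2003 ± 433 CPM, or 0.197 ± 0.041%. These shares come from the contrast that chose the names and are a description.

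Other hairpins with an antisense partner were set beside these values. In all, 24 hairpin pairs lay on opposite strands of 1 place with at least 30 complementary bases. Among names that RefSeq lists, they gave 5 pairs of tested mature names complementary over at least 15 bases, 2 of them from miR-129. That search did not hold miR-126a-5p, which had 802 counts with DMSO and 493 with 27HC. The names of the antisense hairpin Mir126b had 814 and 501. Mir3083 and its antisense partner each held 3 and 5 counts, and Mir290a and Mir290b each held 4 and 0. Whether such names shared reads was not tested. miR-24-3p and miR-3074-5p, complementary over 20 bases, also kept a steady log2 ratio, with an SD of 0.097 in DMSO (counting error 0.069) and 0.10 in 27HC (counting error 0.078). Their log2 fold changes were −0.045 (SE 0.11) and 0.018 (SE 0.095). miR-142a-3p, a microRNA of blood cells, and miR-142b had log2 fold changes of −1.53 (SE 0.20) and −0.13 (SE 0.32), with an SD of the log2 ratio of 0.618 in DMSO (counting error 0.346). miR-338-3p, which is also abundant in brain, and miR-3065-5p had −0.20 (SE 0.15) and 0.24 (SE 0.22), with an SD of 0.479 in DMSO (counting error 0.366). The SD in DMSO was 0.974 times counting error for miR-129-5p with miR-129b-3p, 1.31 times for the miR-338-3p pair, 1.40 times for the miR-24-3p pair, 1.79 times for the miR-142a-3p pair and 5.48 times for miR-129b-5p with miR-129-2-3p. With 27HC the order was another, from 0.785 times for miR-129b-5p with miR-129-2-3p, 0.868 times for the miR-338-3p pair and 1.09 times for miR-129-5p with miR-129b-3p to 1.32 times for the miR-24-3p pair and 1.71 times for the miR-142a-3p pair.

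Outside the family, the names most like miR-129-5p over the 14 libraries were miR-146a-5p, a microRNA of the innate immune response, with a Pearson r of 0.93 of log2 CPM, miR-142a-3p with 0.89, miR-149-5p with 0.89, miR-103-3p with 0.83 and miR-350-3p with 0.81. The most opposite were miR-7667-5p at −0.91, miR-5128 at −0.88 and miR-3473b at −0.88. These values are over libraries of both treatments and include the difference between them. Within DMSO the r of the 5 most alike was 0.48, 0.25, 0.47, 0.61 and 0.34 in the same order, and within 27HC it was −0.095, 0.19, 0.28, 0.75 and 0.50. Within the family, miR-129b-3p had an r of 0.98 over the 14 libraries, miR-129-2-3p 0.89 and miR-129b-5p 0.85. All are descriptions over libraries that differ in depth and treatment.

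As miR-129 is best known from brain, other brain and endocrine microRNAs were examined for like changes. Of 20 listed, 19 were in the table and 6 passed the filter, of which edgeR called 1 higher and 0 lower, beside 12.6% of all tested names called in either direction. The higher name was miR-132-3p, an activity-regulated microRNA of neurons that is also induced in immune cells, at 1.74 (SE 0.43, edgeR adjusted p 0.0122). The median log2 fold change of the 6 was −0.070. The 19 names in the table summed to 2669 to 3544 CPM in DMSO and 2899 to 3575 CPM in 27HC libraries. These sums were carried by miR-338-3p and miR-128-3p, with log2 fold changes of −0.20 (SE 0.15) and 0.057 (SE 0.13). miR-124-3p, the leading neuronal microRNA, had 6 counts over all DMSO libraries and 16 over all 27HC libraries. miR-137-3p, miR-219a-5p and miR-383-5p were at 0 in all DMSO libraries, and miR-488-3p was at 0 in all 27HC libraries. miR-9-5p, another microRNA of neural cells, was present with 333 and 389 counts, at 0.65 (SE 0.38). The list thus held names near 0 and names well above it, and its part in the miR-129 values was not tested.

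Markers of the cells the vesicles could come from were set beside these values. The 4 neutrophil and myeloid names summed to between 83291 and 216664 CPM in DMSO and between 113054 and 149157 CPM in 27HC libraries, mostly miR-223-3p. The miR-142a names among them are microRNAs of blood cells and do not mark neutrophils alone. Calls in these short lists stand beside 8.79% of all tested names called lower and 12.6% called in either direction. Of the 4, miR-142a-3p (−1.53, SE 0.20, edgeR adjusted p 3.55e-05) and miR-142a-5p (−0.74, SE 0.20, edgeR adjusted p 0.0223) were lower with 27HC, and miR-223-3p (−0.26, SE 0.17) and miR-223-5p (0.17, SE 0.10) were not called. Of 3 lymphoid names 1 was lower, miR-150-5p at −0.97 (SE 0.24, edgeR adjusted p 0.0134), and the list summed to 1765 to 2131 CPM in DMSO and 1454 to 2287 CPM in 27HC. Of 5 erythroid names 2 were tested and 0 called, with sums of 962 to 2053 and 1403 to 2127 CPM. The 2 tested, miR-486a-5p and miR-486b-5p, had the same counts in all libraries. They stand as 1 measurement that the sums add 2 times. Of 8 stromal and endothelial names 5 were tested and 0 called, with sums of 1089 to 2341 and 1025 to 2437 CPM. The 2 liver names, led by miR-122-5p, summed to 2739 to 4698 and 1973 to 3880 CPM, and 0 were called. No list but the brain list had a member at 0 in all libraries of a group. The sums of the other lists overlapped between the groups, and their part in the miR-129 values was not tested.

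Short motifs known to be bound by proteins that load RNA into vesicles were searched in the mature sequences, on the RNA strand only. GGAG stands in 14.2% of the 1679 mature mouse sequences in RefSeq and in none of the 4 miR-129 sequences. CCCU stands in 11.4% of mature sequences and in miR-129-2-3p, and GGCU in 13.3% and in miR-129-5p and miR-129b-5p. Among the 201 tested names with a RefSeq sequence, those that hold GGAG, CCCU or GGCU had median log2 fold changes of 0.24, 0.11 and 0.070. The median of all 239 tested names, with or without a sequence, was 0.010. A match is only a run of letters.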

How the data were processed

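The authors deposited whole-number counts per mature microRNA for 14 libraries of vesicles collected with a commercial kit, made with the miRNeasy Micro and QIAseq miRNA kits per the labels' protocols. The submitters' processing notes list R 4.1.2, edgeR, limma and the builds GRCm39 and mm39, with no role; the aligner, the strand rule and any use of molecular identifiers are not given in the sources used here. The deposited counts were tested in edgeR 4.0.16 (R 4.3.3) by quasi-likelihood, with TMM, filterByExpr (minimum count 10, minimum total 15), treatment as the only term and Benjamini-Hochberg adjustment over 239 names, which held 99.4% of counts. The step was tested on simulated data. Log2 CPM used a prior count of 2 and arm ratios 0.5. Alternatives used DESeq2 1.42.0, limma 3.58.1, other scalings and filters, and omitted libraries.

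The members, lists and replicate sets were chosen with earlier results of these data known. Named were all members, the 5 names most and 3 least correlated with miR-129-5p, names that share a seed, complements of antisense hairpins, and up to 4 leading members of each list. Other names were chosen after their values were seen. Exact tests used scipy 1.17.1. Antisense counts are uncertain where strands were not separated, and intervals cover counting error only.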

Additional observations from a re-analysis of the deposited data

Results flagged for a closer look

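Among 22 sets of 7 libraries examined for a library far from the others, 2 had one, where chance gives about 1 in 20. The total of DMSO replicate 3, 871189 counts, was far above the next highest DMSO total of 400585, and its gap made up 0.621 of the range. The log2 ratio of miR-129b-3p to miR-129b-5p in 27HC replicate 5 was −2.09, against −0.88 in the next lowest library, a gap of 0.61 of the range, and rests on 9 and 39 counts.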

How the results depend on the processing

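Log2 fold changes of the tested members kept their sign in all 27 alternatives. Their groups did not overlap and this contrast chose them, so the kept sign is a description and no support. Leaving out each library gave −3.35 to −3.13 for miR-129-5p, −2.98 to −2.59 for miR-129-2-3p, −1.19 to −0.90 for miR-129b-5p and −2.25 to −2.01 for miR-129b-3p. The exception in size was miR-129-2-3p, at −1.36 in replicates 5 to 7 alone. Without the filter on low counts the median of all names was −0.19.

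Names called lower numbered 12 with a mean count of at least 100, 7 in replicates 5 to 7 alone, 13 without 27HC replicate 4, and 13 to 24 over the omitted libraries. Higher calls numbered 16 in replicates 1 to 4 alone, 5 in replicates 5 to 7 alone, and 7 to 12 over the omitted libraries. Either direction gave 12 in replicates 5 to 7 alone and 21 to 34 over the omitted libraries.

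The difference between the replicate sets for miR-129-2-3p passed the threshold without the filter (2.24, edgeR adjusted p 0.00119), with DESeq2 (1.99, adjusted p 0.0277) and without DMSO replicate 4. Omitting each library gave 1.77 to 2.16, with edgeR adjusted p from 0.0115 to 0.227, and other settings reached an adjusted p of 0.352. Names called for such a difference numbered 9 without the filter, 3 with DESeq2, 1 without DMSO replicate 1, 3 without DMSO replicate 4, and 0 to 3 over the omitted libraries. The difference turned positive for miR-129-5p without the filter (0.065) and for miR-129b-5p without DMSO replicate 7 (0.086, with −0.59 to 0.086 over the omitted libraries). The cause of these changes was not tested.

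The ratio of miR-129b-3p to miR-129b-5p in DMSO ran from 0.28 to 0.45 over the omitted libraries and lost its call without any of replicates 1 to 6, when 6 libraries were left. The other 7 arm ratios kept their sign in all 10 alternatives. Of these, the 6 with a test given kept their call in the 8 alternatives that had a test, since replicates 1 to 4 or 5 to 7 alone gave values only.

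The labels do not say that a shared replicate number marks a pair. The consecutive label numbers recur with it in both groups, but their meaning is unstated too. Same-numbered libraries had correlations of 0.069 to 0.60, with replicate 2 under 0.1, and 3 of 7 correlated best with their own number, a hint from the data only. Within the replicate sets the correlations were −0.11 to 0.29. The numbers were therefore not treated as pairs. A fit with the replicate block gave −3.30 for miR-129-5p, −2.65 for miR-129-2-3p, −1.07 for miR-129b-5p and −2.21 for miR-129b-3p (SE 0.12, 0.36, 0.22 and 0.17), with 37 names called, 24 lower and 13 higher. Depth limits miR-129-1-3p, and the arms with 115 to 390 counts over all 27HC libraries.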
